A study of Mus musculus with 82 samples.

Results

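The 34 genes described here are those by which Müller glia, the radial glia of the retina, and astrocytes of the brain are commonly recognized. They were taken by gene symbol, with earlier results of these data known, so that their shares against all genes are exploratory. All 34 were found among the 43629 gene rows of each of 2 tables of raw read counts. One table held cells sorted from the retina as retinal ganglion cells (RGCs) and the other held lysates of the superior colliculus (SC), the midbrain target of RGC axons. Each table covered 10 SHAM, 11 OHT, 10 SHAM + DREADD and 10 OHT + DREADD mice, 41 libraries in all.

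All mice were Vglut2-ires-Cre × Thy1-STOP-YFP animals of about 10 weeks of age, labelled wild-type. In the OHT groups, ocular hypertension had been induced in 1 eye by injected microbeads 5 weeks before, and the SHAM groups had received an injection of vehicle. In the DREADD groups, an AAV2/7 vector with hM3D(Gq)-mCherry under the CaMKIIα promoter had been injected in the superior colliculus, so that the activating receptor was made by excitatory neurons and not, by design, by glia. Mice of the groups without DREADD had received a null vector in the superior colliculus, with mCherry under the same promoter and at a higher titer. All mice received the ligand CNO repeatedly, the controls without the receptor too, and they were killed shortly after the last dose. Each retinal sample was the living, YFP-positive cells of 1 retina, amplified with Smart-Seq2, which copies whole transcripts. Each collicular sample was 1 colliculus, read with QuantSeq, which counts only 3′ ends.

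Müller glia and astrocytes take up the glutamate that neurons release, convert it to glutamine, buffer potassium and water, and supply neurons with lipids and metabolites. Müller glia also take part in the visual cycle, the recycling of retinoids for photoreceptors. In glaucoma models both cell types are known to become reactive, a state in which the filament gene *Gfap* usually rises.

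The labels of the cells were checked first against markers. Total counts ranged from 3534776 to 6889040 in the retinal and from 1766207 to 4239835 in the collicular libraries. In the sorted retinal libraries, the RGC genes *Slc17a6* and *Rbpms* reached at most 36.5 and 44.4 CPM (read counts scaled to a common library size). Summed over 13 rod genes, the libraries held 13195 to 116973 CPM, against 439 to 1861 CPM for 11 RGC genes. The samples are therefore called sorted retinal libraries here, and Müller glia were not a target of the sort. *Rpe65*, of the retinal pigment epithelium, had reads in 1 of the 41 retinal libraries. By *Xist* against Y-linked genes, 2 of 10 SHAM, 2 of 11 OHT, all 10 SHAM + DREADD and 5 of 10 OHT + DREADD mice were female in both tissues, so that sex and stimulation cannot be told apart in SHAM + DREADD against SHAM beyond the 2 female SHAM mice. One SHAM colliculus, replicate 1, carries a treatment label that conflicts with its title and with the header of the table, and results that rest on it are given with and without it.

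In the sorted retina the members were very unequal. Per kilobase of exon, where lengths are comparable, *Aldoc*, an aldolase of glycolysis, was highest at a mean of 857 CPM per kb over the 41 libraries. The secreted protease inhibitor *Cst3* followed at 829, *Atp1b2*, a β subunit of the sodium pump, at 548, the lipid carrier *Apoe* at 492 and the secreted protein *Dkk3* at 414. These 5 genes made up 90.5% of the summed mean CPM of the members. *Atp1b2* is also known as a gene of photoreceptors, and the level of such members cannot be assigned to a cell type in these libraries.

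A second tier held the genes that Müller glia are best known for. *Glul*, glutamine synthetase, reached 63.9 CPM per kb, *Car14*, a membrane-bound carbonic anhydrase, 36.3, *Rlbp1*, the retinaldehyde-binding protein of the visual cycle, 35.8 and *Mfge8*, a secreted protein that bridges cells to phagocytes, 33.6. The glutamate transporters *Slc1a2* and *Slc1a3* reached 6.87 and 6.62, and the water channel *Aqp4* 2.96. Genes typical of astrocytes rather than Müller glia were near the limit of detection. *Gjb6* (connexin 30) had 0 reads in all 41 retinal libraries, *Cldn10* 2 reads in total, *Bbox1* reads in 1 library and *Ntsr2* in 2. In all, 16 members had reads in every retinal library and 8 had a mean of 1 CPM or less. A count of 0 allows an expected count of up to 3 reads in that library, which covers counting error only, so that these genes were not detectable at this depth rather than shown to be absent.

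In the colliculus 33 of the 34 members had reads in all 41 libraries, and 31 had a mean of at least 10 CPM. Since QuantSeq gives about 1 read per transcript whatever its length, CPM can be compared there between genes. *Apoe* was highest, at 1968 ± 199 CPM (SD, n = 41), and *Glul* next, at 1887 ± 294 CPM, a difference smaller than either spread. *Cst3* (1337 ± 223), the main glutamate transporter *Slc1a2* (1071 ± 100), *Aldoc* (1049 ± 151) and *Ndrg2* (954 ± 146) followed. *Glul* stood above *Cst3*, and *Cst3* above *Slc1a2*, by more than their SDs, while *Slc1a2*, *Aldoc* and *Ndrg2* did not differ beyond theirs. The visual cycle genes were at the bottom: *Rlbp1* had a mean of 1.90 CPM and *Rgr*, a retinal opsin of Müller glia and pigment epithelium, had 3 reads in total. *Bbox1*, at 7.70 CPM, was the only other member under 10 CPM. *Bbox1* and *Rgr* were thus low in both tissues, whereas *Gjb6*, with 0 reads in the retina, had 88.3 CPM in the colliculus. The tables were made with different protocols and normalized apart, so that levels were not tested between them.

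**Figure D1:**
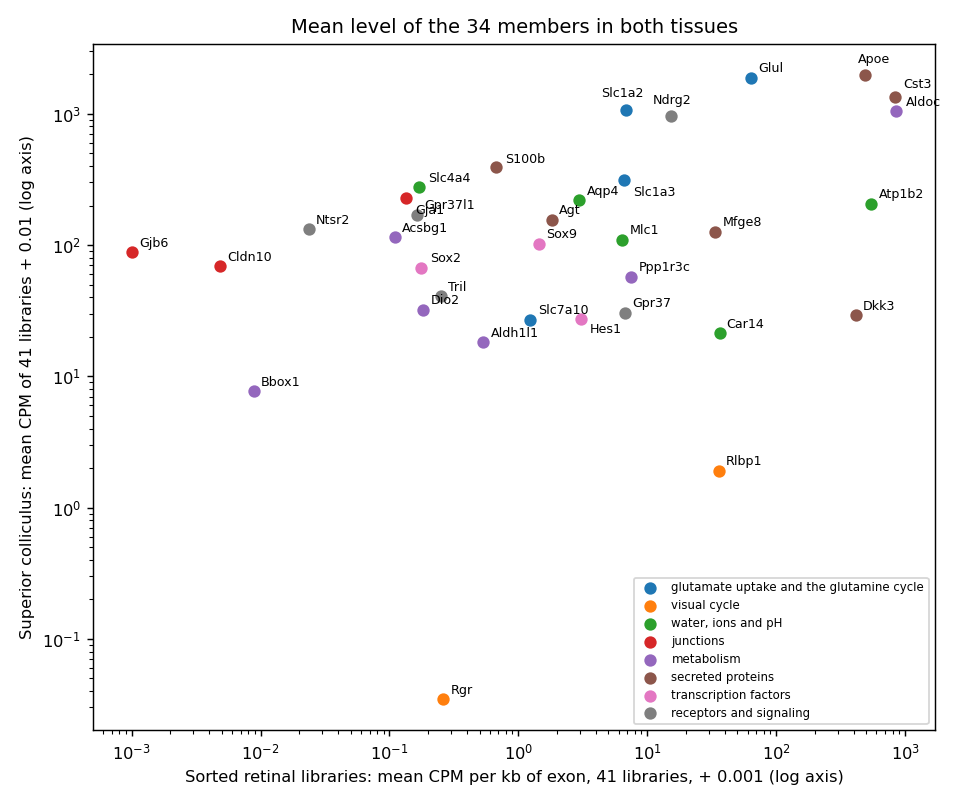
Mean level of each of the 34 members, in CPM per kb of exon in the sorted retinal libraries (horizontal, log axis, 0.001 added) and in CPM in the superior colliculus (vertical, log axis, 0.01 added), each over 41 libraries, with the color giving the role. *Gjb6* and *Bbox1* lie at the left with 0 or few retinal reads, and *Rlbp1* and *Rgr* lie at the bottom with means of 1.90 and 0.025 CPM in the colliculus.

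The members also differed in how far libraries of 1 tissue varied. Over the 41 colliculi, 26 of 34 members had a coefficient of variation under 25%, the lowest being *Slc1a2* with 9.36%. Apart from *Rgr*, only *Rlbp1* (54.9%), *Dio2* (54.4%) and *Bbox1* (44.5%) reached 40%. In the retina 1 member, *Aldoc* (18.3%), was under 25%. *Apoe* had 52.2%, *Glul* 59.8%, *Rlbp1* 71.7%, *Car14* 72.9% and *Slc1a3* 80.7% there.

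Much of this retinal variation was shared by a group of 10 members. With the group means removed, 10 members (*Apoe*, *Slc1a3*, *Rlbp1*, *Mlc1*, *Car14*, *Glul*, *Aqp4*, *Mfge8*, *Gpr37* and *Ndrg2*) had a median Pearson correlation of 0.60 over their 45 pairs, with a lowest value of 0.40. These 10 genes were picked after their correlations were seen, so that the values describe these 41 libraries only. Over all 528 pairs of retinal members the median was 0.065. *Slc1a3* and *Apoe* were the closest pair (r = 0.75), ahead of *Mlc1*, which is needed for volume regulation of astroglia, with *Car14* (0.72). Of the 10, *Glul* and *Aqp4* were closer to endothelial and mural genes (0.74 and 0.49) than to the sum of the other members (0.35 and 0.45). *Mfge8* and *Ndrg2* were closer to rod genes (0.78 and 0.52 against 0.56 and 0.39). The rest of the 10 were closer to the other members than to the other cells compared. The part of these cells was not tested. *Aldoc* and *Dkk3* took no part, and *Aldoc* ran against the sum of the other members (r = -0.31) and with neuronal genes (0.75). In the colliculus the same 10 genes had a median correlation of -0.0050, and other pairs led there: *Aldoc* with *Acsbg1*, an acyl-CoA synthetase (0.80), *Acsbg1* with the neurotensin receptor *Ntsr2* (0.75), and *Gja1* (connexin 43) with *Cst3* (0.74). Depth and the make-up of a library are shared by all points of such a correlation.

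Of 29 members with an entry in the RefSeq promoter table (GRCm38.p6), the 250 bases before the start are shown for *Slc1a3* and *Rlbp1*, which moved together in the retina, and further on for *Bbox1* and *Dio2*, the members with the largest estimates in the colliculus. Both strands were searched for ACAAT and ACAAAG, letters that SOX factors such as the members SOX9 and SOX2 can bind (ATTGT and CTTTGT on the other strand), and for the cAMP response element TGACGTCA. Matches, in capitals, are a description and no proof of a site. *Slc1a3* (chr15:8710808-8711057, minus strand) held ATTGT 112 bases before the start, and *Rlbp1* (chr7:79387028-79387277, minus strand) held CTTTGT 42 bases before it. The *Rlbp1* window reaches a few bases into the gene as annotated in GENCODE M21.
Slc1a3: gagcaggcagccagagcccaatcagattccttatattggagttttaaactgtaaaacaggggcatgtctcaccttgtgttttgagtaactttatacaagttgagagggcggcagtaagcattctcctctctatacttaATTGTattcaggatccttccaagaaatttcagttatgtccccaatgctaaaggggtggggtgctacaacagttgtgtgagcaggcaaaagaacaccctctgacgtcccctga
Rlbp1: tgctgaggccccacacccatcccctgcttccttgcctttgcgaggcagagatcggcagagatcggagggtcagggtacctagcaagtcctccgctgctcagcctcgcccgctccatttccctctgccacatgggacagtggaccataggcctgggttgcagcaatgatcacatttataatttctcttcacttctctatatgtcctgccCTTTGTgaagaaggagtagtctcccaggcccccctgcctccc
Either motif was frequent: ACAAT was found in 27.7% and ACAAAG in 16.5% of all 32851 promoters of this length, and in 4 and 6 of the 36 promoters listed for the members.

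A pair of retinal libraries was rich in these genes. In SHAM + DREADD replicate 8 and OHT + DREADD replicate 8, *Apoe* reached 2796 and 3122 CPM, against a median of 868 and a highest value of 1619 CPM in the other 39 retinal libraries. *Slc1a3* reached 258 and 196 CPM against a median of 43.9, and *Mlc1* 80.1 and 72.4 CPM against 13.0. For 10 of the 34 members these were the 2 highest of the 41 libraries. Rod genes summed to 98404 and 83716 CPM in the same libraries, whereas *Aldoc*, at 1592 and 2560 CPM, was below its median of 2797 CPM in the others. The 2 libraries bear consecutive sample identifiers, followed by OHT + DREADD replicate 9, the highest in rod genes (116973 CPM). Whether they were prepared together is not stated, and a part of this was not tested. Over all retinal libraries the summed members correlated with other astroglial genes at r = 0.63, with rod genes at 0.50 and with RGC genes at -0.025 (n = 41, group means removed). Endothelial and mural genes were at 0.47, bipolar genes at 0.37 and amacrine genes at -0.35, or -0.011 by ranks. The 5 most abundant members, *Aldoc* first, made up 90.5% of this sum. In bulk samples, more glial cells and more RNA per glial cell cannot be told apart, and the part that other retinal cells had in these values was not tested.

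**Figure D2:**
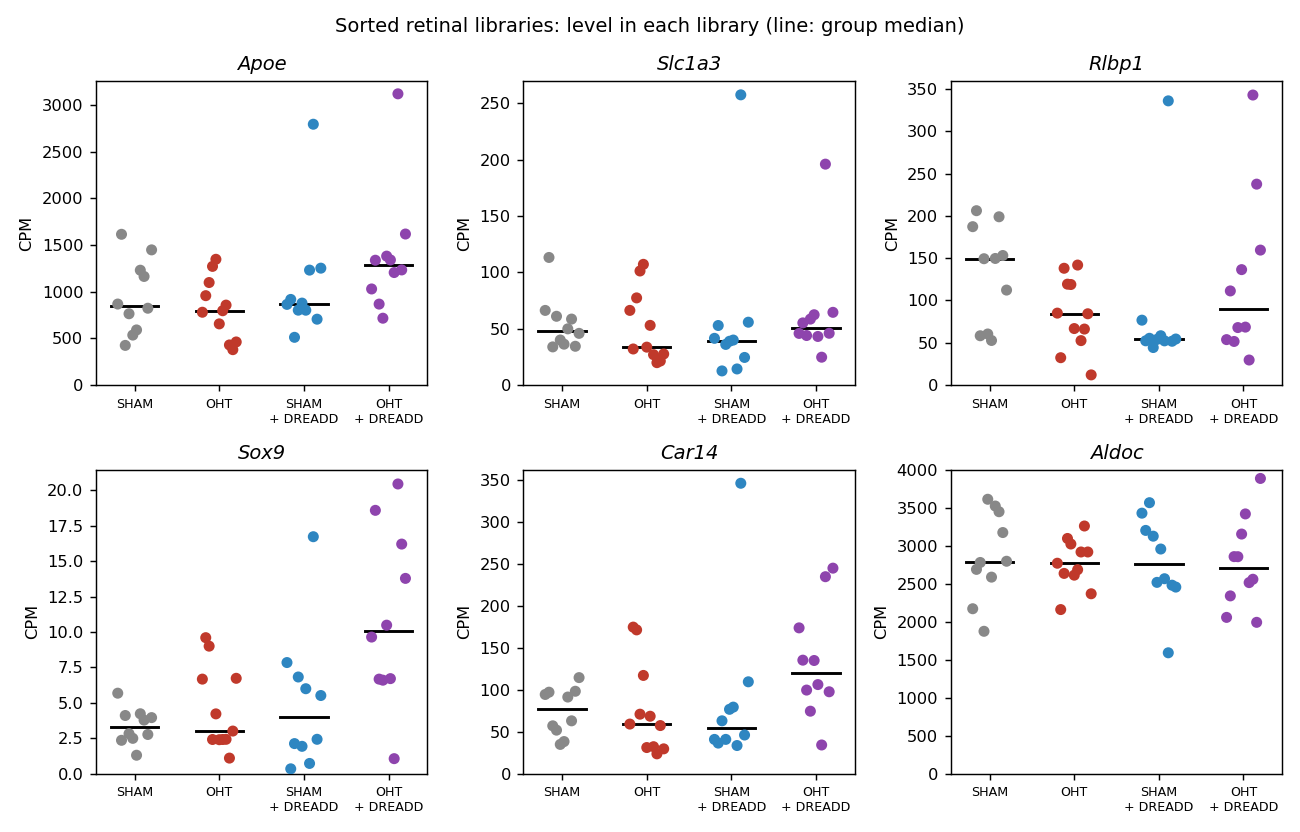
Level in CPM of 6 members in each sorted retinal library, by group, with a line at the group median. SHAM + DREADD replicate 8 and OHT + DREADD replicate 8 are the highest points for *Apoe*, *Slc1a3* and *Rlbp1*, at 336 and 343 CPM for the last, while *Aldoc* shows no such points.

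The first question of the study was what OHT alone does. In the sorted retinal libraries a gene was called when its edgeR adjusted p did not exceed 0.1 and its log2 fold change, up or down, reached 1.3. For OHT against SHAM, 0 of 30 members tested were called, against 0.0686% of all 17491 genes. DESeq2 called 0 as well, and at an unadjusted p under 0.05 there was 1 member higher and 1 lower (background 2.39% and 3.38%). The median log2 fold change was -0.0025 over the members and -0.021 over all genes. *Aldoc* (-0.045, SE 0.13), *Glul* (0.0086, SE 0.23) and *Slc1a3* (-0.063, SE 0.26) gave estimates near 0.

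The member that stood out under OHT in the retina was *Rlbp1* (chr7:79374870-79387048 in mm10), whose protein carries 11-cis-retinal in Müller glia and pigment epithelium. It ranged from 52.7 over a median of 150 to 206 CPM in SHAM and from 12 over 84.3 to 142 CPM in OHT. The groups overlapped, but all 11 OHT libraries were below the SHAM median. Its log2 fold change was -0.67 (SE 0.27, unadjusted p = 0.017, edgeR adjusted p = 0.48), which did not pass. *Acsbg1* had 33 reads in 4 OHT libraries and 1 read in SHAM, too few for a fold change, and was the member with the higher estimate.

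*Rlbp1* was also low when the colliculus was stimulated without OHT. In SHAM + DREADD it ranged from 44.4 over 54.2 to 336 CPM, and 9 of the 10 libraries were below the SHAM median. Against SHAM its log2 fold change was -0.66 (SE 0.32, edgeR adjusted p = 0.90). The highest value was that of replicate 8, the library rich in members. The other 9 SHAM + DREADD libraries lay between 44.4 and 76.7 CPM, 4 of them below every SHAM library, and without replicate 8 the log2 fold change was -1.26 with an edgeR adjusted p of 0.013, still short of the fold change of 1.3. With sex as a covariate it was -1.05 (adjusted p = 0.93). No member was called in this comparison (0 of 29, background 0.0115% of 17439 genes), DESeq2 called 0, and *Rlbp1* was the only one at an unadjusted p under 0.05 in edgeR (background 2.2% higher and 2.96% lower). Both comparisons share the SHAM libraries, and so do not count as separate evidence of a difference from SHAM.

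When stimulation was added to OHT, several members had higher estimates in the sorted retinal libraries, but none passed the test. In OHT + DREADD against OHT, 0 of 30 members were called (background 0.0874% of 17160 genes), by DESeq2 also 0. At an unadjusted p under 0.05, 5 members (16.7%) were higher and 1 was lower, against 5.02% and 3.45% of all genes. The estimate was positive for 23 of 30 members, against 50.3% of all genes, with a median log2 fold change of 0.27 over the members and 0.0043 over all genes. The members share libraries and covary, so that their number is no measure of independent evidence.

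*Apoe* (chr7:19696109-19699188), which carries cholesterol between glia and neurons, had the lowest p. It ranged from 379 over 797 to 1348 CPM in OHT and from 716 over 1286 to 3122 CPM in OHT + DREADD. The ranges overlapped in part: 9 of 10 OHT + DREADD libraries exceeded the OHT median and 3 exceeded every OHT library. This gave a log2 fold change of 0.74 (SE 0.22, unadjusted p = 0.0016, edgeR adjusted p = 0.20), 0.53 without OHT + DREADD replicate 8 and 0.59 with sex as a covariate.

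*Sox9* (chr11:112782224-112787760), the transcription factor that marks Müller glia and astrocytes, was low in counts but showed the largest estimate among the members with reads in all libraries. OHT libraries held 1.10, 3.01 and 9.60 CPM as lowest, median and highest values, and OHT + DREADD libraries 1.06, 10.1 and 20.4. Of the 10 OHT + DREADD libraries, 6 lay above every OHT library. Its log2 fold change was 1.25 (SE 0.44, edgeR adjusted p = 0.24), and it was 1.10 (SE 0.52, adjusted p = 0.66) against SHAM + DREADD.

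*Car14* followed with a log2 fold change of 0.80 (SE 0.31, edgeR adjusted p = 0.34), from a median of 59.2 CPM in OHT to 121 in OHT + DREADD with overlapping ranges. *Car14* overlaps *Aph1a* on the opposite strand, and *Aph1a* was the gene closest to it over the 41 libraries (r = 0.81). Since it is not stated whether counting used the strand, reads of this pair cannot be told apart. *Atp1b2* (0.40, SE 0.16, adjusted p = 0.38) and *Dkk3* (0.35, SE 0.17, adjusted p = 0.56) had smaller estimates in the edgeR test. *Gpr37l1* had 33 reads in 5 of 11 OHT libraries and 0 reads in the 10 OHT + DREADD libraries, which is too few for a fold change. Rod genes were higher in the same comparison, with a median log2 fold change of 0.46 over 13 genes, and RGC genes lower (-0.32 over 11). Medians were also positive for endothelial and mural genes (0.55, 8 of 9 positive), microglial genes (0.61, 5 of 7), oligodendrocyte genes (0.71, 4 of 5) and pigment epithelial genes (1.40, 4 of 5). The pigment epithelial genes summed to a median of only 1.93 CPM per retinal library. Their estimates ran from -2.37 to 2.64, so that there were too few reads for a fold change. The part of all these cells in the values of the members was not tested.

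For OHT + DREADD against SHAM + DREADD, 0 of 29 members were called (background 0.041% of 17088 genes, DESeq2 0), with a median of 0.26 against -0.020 over all genes. The estimate was positive for 24 of 29 members (background 48.4%), and *Sox9* was the only one at an unadjusted p under 0.05 (background 4.05% higher and 3.18% lower). Rod genes had a median of 0.49, with 12 of 13 positive. Pigment epithelial genes, with few reads, had 1.20, with 4 of 6. Bipolar genes had -0.29, with 8 of 10 lower, and amacrine genes -0.17, with 7 of 9 lower. The part of these cells in the values of the members was not tested. Over all 4 retinal groups, 0 of 30 were called for OHT (background 2.76% of 19234 genes), for stimulation (2.32%) and for their interaction (2.43%), and DESeq2 called 0 in each. For OHT, *Acsbg1* and *Sox9* (0.77, SE 0.35) were higher at an unadjusted p under 0.05 and 0 members lower (background 3.91% and 4.74%). For stimulation, 4 members were higher and 1 lower at an unadjusted p under 0.05 (background 4.25% and 4.39%), among them *Sox9* (log2 fold change 0.93, SE 0.35), *Apoe* (0.47, SE 0.18) and *Car14* (0.52, SE 0.24). Without the 2 libraries rich in members these fell to 0.66, 0.22 and 0.18, and with sex as a covariate *Apoe* was at 0.28.

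The interaction asks whether stimulation acts differently with OHT than without. *Rlbp1* had an interaction of 1.24 on the log2 scale (SE 0.50, edgeR adjusted p = 0.28): its median was 150 CPM in SHAM, 84.3 in OHT, 54.2 in SHAM + DREADD and 89.9 in OHT + DREADD. Without the 2 libraries rich in members, a choice made after seeing the data, the interaction was 1.52 with an adjusted p of 0.040 and passed. For *Apoe* it was 0.55 (SE 0.35, adjusted p = 0.70), and 0.62 (adjusted p = 0.42) without these libraries. At an unadjusted p under 0.05, *Rlbp1* was higher and the rarely detected *Gpr37l1* lower for the interaction (background 5.46% and 4.6%).

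The glutamate and metabolic genes gave smaller estimates in the retina. Over the 4 comparisons of 2 groups, *Glul* had log2 fold changes of 0.0023 to 0.20, *Slc1a3* of -0.063 to 0.30 and *Slc1a2* of 0.067 to 0.23, with SEs of 0.19 to 0.39 and edgeR adjusted p-values of 0.917 or above. *Aldoc*, the most abundant member, was between -0.045 and -0.015 with SEs of 0.13 to 0.18. Among the genes of water and ion handling, *Aqp4* ranged from -0.22 to 0.59 and *Mlc1* from 0.17 to 0.31. Of the signaling genes, *Gpr37*, a receptor, lay between -0.17 and 0.13 and *Ndrg2* between -0.12 and 0.38, and the Notch target *Hes1* between 0.13 and 0.26.

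**Figure D3:**
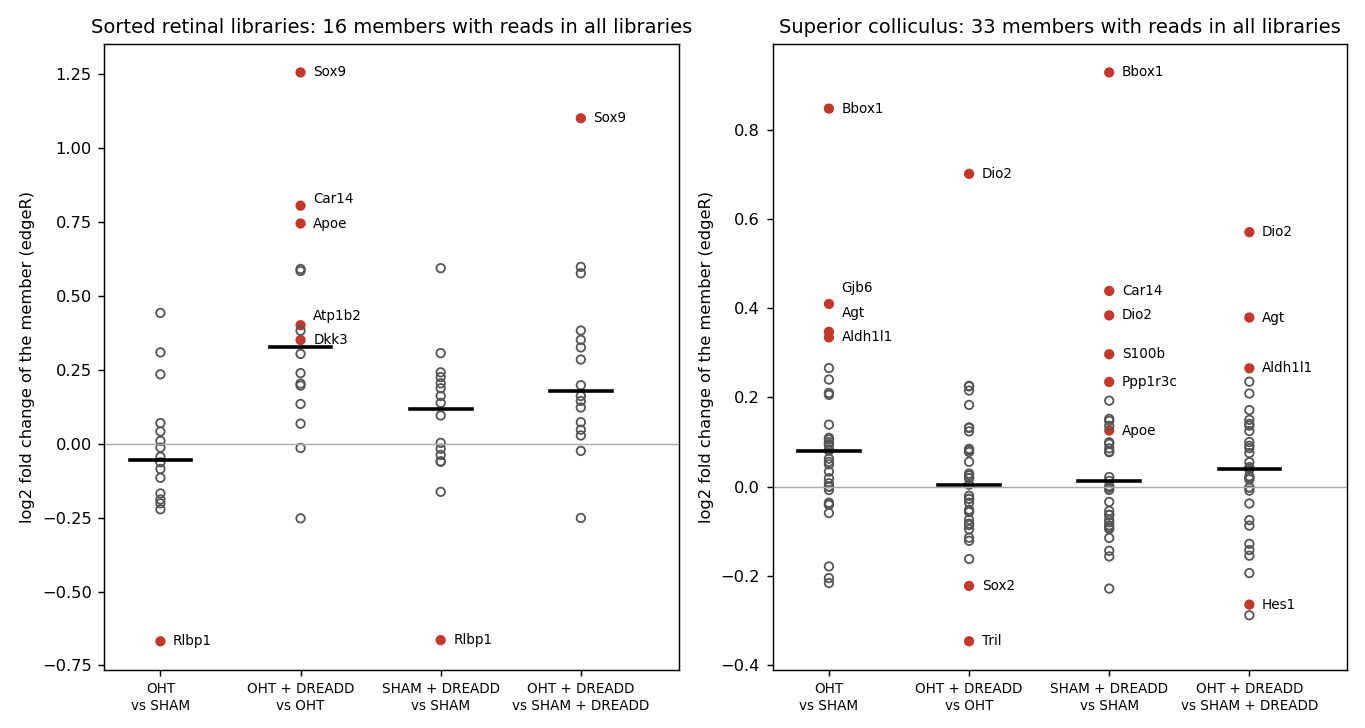
Log2 fold change of each member in the 4 comparisons of 2 groups, for the 16 members with reads in all sorted retinal libraries (left) and the 33 with reads in all collicular libraries (right); filled points have an unadjusted p under 0.05 in edgeR and lines are medians of the plotted members. No point passed the adjusted p and fold change needed for a call. *Sox9* and *Bbox1* lie highest, at 1.25 and 0.93, and *Rlbp1* lowest, at -0.67.

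In the colliculus the median member differed little with OHT. A call there needed a log2 fold change of 0.5 beside the same edgeR adjusted p. For OHT against SHAM, 0 of 33 members were called (background 0.0193% of 15578 genes), and DESeq2 called 0. At an unadjusted p under 0.05, 4 members (12.1%) were higher and 0 lower, against 2.77% and 2.18% of all genes. The median log2 fold change was 0.081 over the members and -0.0010 over all genes, with 24 of 33 estimates positive (background 49.7%). The 4 genes were *Bbox1*, *Gjb6*, *Aldh1l1* and *Agt*. Other astroglial genes outside the members had a median of 0.0046 in the same comparison, with 20 of 39 positive. Endothelial and mural genes had -0.20, with 8 of 10 lower, and microglial genes -0.078, with 9 of 11 lower. The part of these cells in the values of the members was not tested.

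*Bbox1* (chr2:110262697-110314560), the enzyme of the last step of carnitine synthesis, had a higher median in each of the other groups than in SHAM. It ranged from 2.35 over 4.33 to 9.11 CPM in SHAM, from 4.91 over 8.62 to 10.8 in OHT and from 5.43 over 8.57 to 13.4 in SHAM + DREADD. Its highest SHAM value was that of replicate 1, the library with the conflicting label, and the other 9 reached at most 5.51 CPM. Without it, 9 of 11 OHT and 9 of 10 SHAM + DREADD libraries were above every SHAM library.

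For OHT against SHAM the log2 fold change of *Bbox1* was 0.85 (SE 0.21, unadjusted p = 3.9e-04, edgeR adjusted p = 0.86), and 1.03 (adjusted p = 0.101) without replicate 1. For SHAM + DREADD against SHAM it was 0.93 (SE 0.22, unadjusted p = 1.5e-04, adjusted p = 0.11), and 1.11 (adjusted p = 0.014) without replicate 1, where it was called. With sex as a covariate the latter was 0.75 (adjusted p = 0.58). The 2 female SHAM colliculi were at 5.04 and 5.17 CPM, from 13 and 16 reads. The 10 SHAM + DREADD colliculi, all female, were at 5.43 CPM or above, and the lowest of them had 15 reads. This order is therefore within counting error. These comparisons share the SHAM libraries. The gene had 941 reads over 41 libraries, 124 of them in SHAM, so that few reads stand behind each value.

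The other genes that leaned upwards with OHT in the colliculus had smaller estimates. *Gjb6*, connexin 30 of astrocyte gap junctions, ranged from 50.4 over 75.3 to 107 CPM in SHAM and from 59.4 over 86.7 to 199 in OHT (log2 fold change 0.41, SE 0.15, edgeR adjusted p = 0.96), and its estimate was 0.26 without OHT replicate 2, the highest library. *Aldh1l1*, a folate enzyme and pan-astrocyte marker, went from a median of 17.1 to 18.9 CPM (0.33, SE 0.12), and *Agt*, angiotensinogen, from 126 to 158 CPM (0.35, SE 0.14). All 3 overlapped between groups. Against SHAM + DREADD, OHT + DREADD had similar estimates for *Agt* (0.38, SE 0.16) and *Aldh1l1* (0.27, SE 0.13), and that pair of groups shares no library with OHT against SHAM. Neither passed the edgeR test in it (adjusted p = 0.66 and 0.70), and 0 of 33 members were called (background 0.0192% of 15592 genes, DESeq2 0). At an unadjusted p under 0.05, *Dio2* (0.57, SE 0.25) was also higher and *Hes1* lower in that comparison (background 4.46% and 2.67%). The estimate of *Dio2* turned to -0.24 with sex as a covariate and was 0.37 without OHT + DREADD replicate 1, and that of *Aldh1l1* was 0.18 with sex as a covariate. That of *Agt* was 0.28 without OHT + DREADD replicate 3, the highest library of its group. For OHT against SHAM, *Agt* was at 0.25 without OHT replicate 2, also the highest of its group. Over all 4 groups the effect of OHT was 0.30 for *Aldh1l1* (SE 0.085, unadjusted p = 9.5e-04, adjusted p = 0.73) and 0.36 for *Agt* (SE 0.11, adjusted p = 0.77), and 0 members were called (background 0% of 16169 genes, DESeq2 0), with 5 higher and 0 lower at an unadjusted p under 0.05 (2.83% and 1.66% of all genes).

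**Figure D4:**
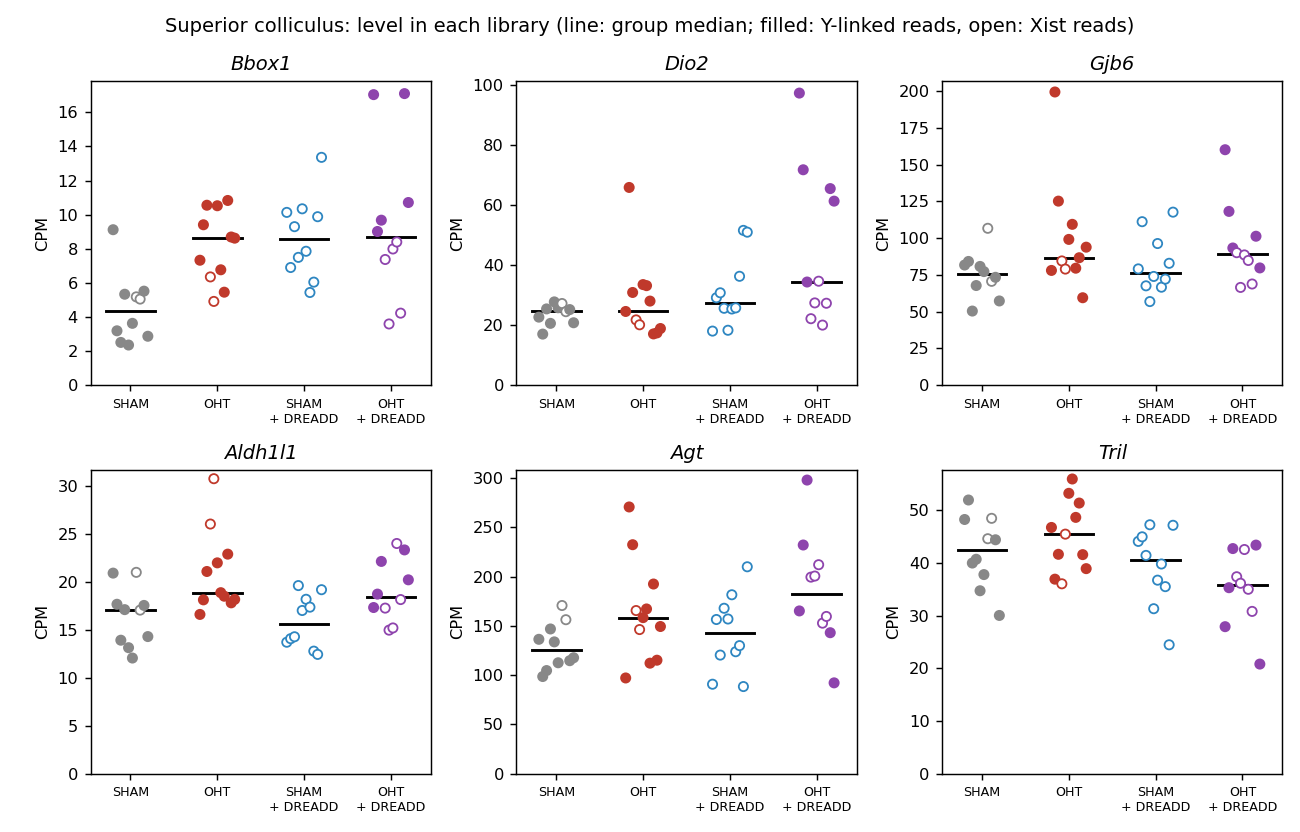
Level in CPM of 6 members in each collicular library, by group, with a line at the group median; filled points are males and open points females by *Xist* and Y-linked genes. *Bbox1* lies at or below 5.51 CPM in all SHAM libraries but replicate 1, and *Dio2* is at 34.3 CPM or above in the 5 males and at 34.6 or below in the 5 females of OHT + DREADD.

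Stimulation gave no call among the members in the colliculus either. For SHAM + DREADD against SHAM, 0 of 33 were called (background 0.0842% of 15433 genes, DESeq2 0), but 6 (18.2%) were higher and 0 lower at an unadjusted p under 0.05, against 4.62% and 4.92% of all genes. In the same comparison microglial genes had a median log2 fold change of 0.22, with 6 of 11 higher at that p, and neuronal genes of -0.12, with 4 of 9 lower, and their part in the values of the members was not tested. The 6 members were *Bbox1*, *Dio2*, *S100b*, a calcium-binding protein of astrocytes (log2 fold change 0.30, SE 0.097), *Car14* (0.44, SE 0.15), *Ppp1r3c*, which targets phosphatase to glycogen (0.23, SE 0.095), and *Apoe* (0.13, SE 0.060). *S100b* overlaps *Dip2a* on the opposite strand, and reads of the pair cannot be told apart where counting ignored strand. With sex as a covariate *Ppp1r3c* was at 0.088 and *S100b* at -0.055, and for *S100b* the 2 female SHAM colliculi, at 371 and 526 CPM, lay within the 358 to 541 CPM of SHAM + DREADD. For OHT + DREADD against OHT, 0 of 33 were called (background 0.0956% of 15694 genes, DESeq2 0), with 1 higher and 2 lower at that p (4.31% and 3.08% of all genes).

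The 2 lower genes were *Tril* and *Sox2*. *Tril*, a coreceptor of Toll-like receptors in astrocytes, ranged from 36.1 over 45.5 to 56.0 CPM in OHT and from 20.8 over 35.7 to 43.4 in OHT + DREADD. All 10 OHT + DREADD libraries were below the OHT median and 5 were below every OHT library. *Tril* had a log2 fold change of -0.35 (SE 0.11, edgeR adjusted p = 0.53) and -0.34 with sex as a covariate. *Sox2*, a transcription factor of neural stem cells and astroglia, had -0.22 (SE 0.095, adjusted p = 0.63), against 0.077 (SE 0.082) for stimulation without OHT, with an interaction of -0.31 (SE 0.12, adjusted p = 0.51).

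*Dio2* (chr12:90724552-90738438) had the largest estimate for stimulation over the 4 groups. Its product, type 2 deiodinase, makes active thyroid hormone from thyroxine in astrocytes for the use of neurons. It ranged from 17.0 over 24.8 to 27.7 CPM in SHAM, from 17.0 over 24.5 to 65.8 in OHT, from 18.0 over 27.4 to 51.5 in SHAM + DREADD and from 20.0 over 34.5 to 97.3 in OHT + DREADD. All groups overlapped, but 6 of 10 OHT + DREADD libraries were above every SHAM library. Against OHT, OHT + DREADD had a log2 fold change of 0.70 (SE 0.25, edgeR adjusted p = 0.56) and 0.50 without OHT + DREADD replicate 1, the highest library. With sex as a covariate it was 0.93 with an adjusted p of 0.037, and passed. That fit takes the difference between sexes as equal in both groups. OHT held only 2 females, and the sexes lay further apart in OHT + DREADD than in OHT.

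The high *Dio2* values of OHT + DREADD were those of males. The 5 males ranged from 34.3 over 65.5 to 97.3 CPM and the 5 females from 20.0 over 27.3 to 34.6. In OHT the 9 males ranged from 17.0 over 28 to 65.8 CPM and the 2 females were at 20.1 and 21.7. The females of SHAM + DREADD reached 51.5 CPM, so that female colliculi were not always low. Their replicates 9 and 10, at 51.5 and 50.9 CPM, directly follow OHT + DREADD replicates 9 and 10 in the sample identifiers. Those 2 OHT + DREADD males were at 65.5 and 61.3 CPM. Whether the order of the samples had a part in these values was not tested. *Bbox1* showed the same order in OHT + DREADD, with 9.01 to 17.1 CPM in the males and 3.58 to 8.39 in the females. Over all 4 groups, the effect of stimulation on *Dio2* was 0.55 (SE 0.16, unadjusted p = 0.0015, edgeR adjusted p = 0.31), and 0.88 (adjusted p = 0.0028) with sex as a covariate. For *Bbox1* it was 0.53 (SE 0.17, adjusted p = 0.37), and 0.73 (adjusted p = 0.040) with sex in the model. Without sex in the model, 0 of 33 members were called for stimulation (background 0.111% of 16169 genes, DESeq2 0), and 0 for the interaction (0.0433%, DESeq2 0). At an unadjusted p under 0.05, 5 members were higher and 2 lower for stimulation (background 4.58% and 3.54%), and 0 higher and 3 lower for the interaction (3.97% and 3.97%), namely *Sox2*, *S100b* and *Bbox1*.

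The 6 most abundant members gave small estimates in the colliculus, with small SEs. Over the 4 comparisons of 2 groups, *Slc1a2* ranged from -0.0071 to 0.023 on the log2 scale, with SEs of 0.059 to 0.082, and *Glul* from 0.075 to 0.081, with SEs of 0.087 to 0.099. *Apoe*, the most abundant, was positive in all 4, from 0.039 to 0.13, *Aldoc* ranged from -0.027 to 0.14, *Cst3* from 0.016 to 0.099 and *Ndrg2* from -0.086 to 0.094. *Gja1* lay between -0.038 and -0.0023 and *Aqp4* between -0.18 and 0.0045. *Mlc1*, *Mfge8*, *Cldn10* and *Acsbg1* stayed within 0.15 of 0, while others reached further without a call, among them *Rlbp1* (-0.29), *Hes1* (-0.26), *Atp1b2* (0.24), *Slc7a10* (-0.23), *Sox9* (0.22) and *Dkk3* (0.21). These 4 comparisons share groups.

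*Dio2* covaried with genes outside the members. Among 10410 genes with a mean log2 CPM above 3, those closest to it, with group means removed, were *Tsc22d3* (r = 0.84), *Phactr3* (0.82), *Rhou* (0.81), *Ddit4* (0.79) and *Pnpla2* (0.79), against a median absolute r of 0.16. *Tsc22d3* is known as the gene of the glucocorticoid-induced leucine zipper. The relation to *Dio2* was present within each group, with r from 0.77 in SHAM to 0.86 in OHT + DREADD (n = 10 or 11). *Tsc22d3* itself had medians of 6.30 log2 CPM in SHAM, 6.49 in OHT, 6.46 in SHAM + DREADD and 6.53 in OHT + DREADD, with a highest value of 7.76 in OHT + DREADD. Its part in the values of *Dio2* was not tested. These genes were singled out after the values of *Dio2* were seen. The genes closest to *Bbox1*, led by *Txnip* (r = 0.64), were less close.

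**Figure D5:**
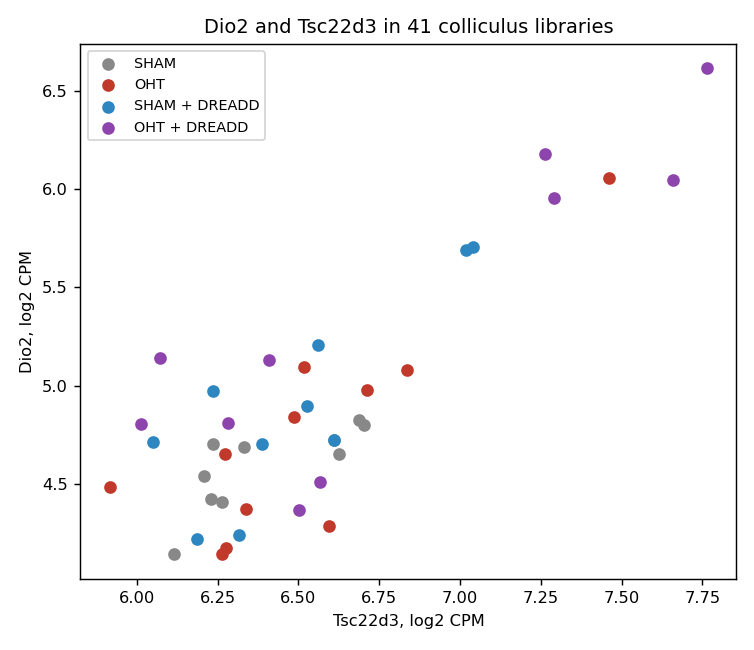
*Dio2* against *Tsc22d3*, both in log2 CPM, in the 41 collicular libraries, with the color giving the group. Libraries high in one gene are high in the other within each group, with r from 0.77 to 0.86, and the highest *Tsc22d3* value, 7.76, is one of OHT + DREADD.

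The promoters of *Bbox1* and *Dio2* are shown since these members had the largest estimates in the comparisons of 2 collicular groups. The cAMP response element TGACGTCA was found in *Dio2* alone among the 29 members, 95 bases before the start (window chr12:90739039-90739288, minus strand), and in 1.55% of all 32851 promoters. *Bbox1* (chr2:110305726-110305975, minus strand) held ACAAAG 85 and ATTGT 9 bases before the start, and *Dio2* held ACAAAG 201 bases before it. The RefSeq start used for *Bbox1* lies inside the gene as annotated above, so that its window does too, and other transcripts start further upstream. For *Dio2* the RefSeq start lies upstream of the gene as annotated above, which starts at 90738438. The *Dio2* matches are thus further from that start than from the RefSeq start. No match overlapped another.
Bbox1: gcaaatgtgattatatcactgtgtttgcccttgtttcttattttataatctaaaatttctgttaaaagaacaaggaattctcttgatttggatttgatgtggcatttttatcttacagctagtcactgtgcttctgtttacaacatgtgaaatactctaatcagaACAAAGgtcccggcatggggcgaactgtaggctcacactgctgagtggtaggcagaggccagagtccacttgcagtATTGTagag
Dio2: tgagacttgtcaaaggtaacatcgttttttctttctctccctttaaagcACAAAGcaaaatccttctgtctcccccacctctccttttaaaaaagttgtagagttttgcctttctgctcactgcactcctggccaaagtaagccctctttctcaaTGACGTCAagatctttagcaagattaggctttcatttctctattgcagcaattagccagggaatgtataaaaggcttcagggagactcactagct

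The summed level of the members varied with the genes of other cells in the collicular libraries. It ranged from 10043 to 13603 CPM, and correlated over the 41 colliculi with other astroglial genes (r = 0.70), with neuronal genes (0.67) and with oligodendrocyte genes (0.61), and inversely with microglial (-0.69) and endothelial and mural genes (-0.58). The single genes closest to the sum were *Saraf* (0.78), the myelin gene *Mbp* (0.78), *Oscp1* (0.74), *Snrpn* (0.73) and *Pink1* (0.72). In the retina, the sum ranged from 7066 to 15056 CPM, and the closest genes were *Btg2* (0.70), *Klc3* (0.68), *Prdx6* (0.68), *Asic4* (0.66) and *Ercc2* (0.65). All points share the depth and make-up of their library.

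Among 40 further astroglial genes outside the members, calls were few and fell on genes with very few reads. In the sorted retinal libraries *Fgfr2* passed for the effect of OHT over all 4 groups (edgeR adjusted p = 0.019), with 28 reads in 2 OHT libraries, 57 reads in 5 OHT + DREADD libraries and 0 reads in both groups without OHT. *Fgfr3* passed for stimulation (adjusted p = 0.082), with 25 and 7 reads without and 3 and 0 reads with the receptor. *Htra1*, a secreted protease, had a log2 fold change of 1.17 (SE 0.37, adjusted p = 0.20) in OHT + DREADD against OHT, where the median of these genes was 0.34, near that of the members. *Gfap*, the marker of reactive glia, had medians of 2.16 CPM in SHAM and 4.80 in OHT in the retina (1.28, SE 0.72, adjusted p = 1.00), and of 98.6 and 113 CPM in the colliculus. In the colliculus 0 of these genes were called in any of the 7 comparisons. There, *Hes5*, a target of Notch, had -0.63 in OHT + DREADD against OHT (SE 0.25, adjusted p = 0.62) and *Kcnj10*, the potassium channel Kir4.1, had -0.30 in SHAM + DREADD against SHAM (SE 0.083, adjusted p = 0.27).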

How the data were processed

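RNA of 41 sorted retinal and 41 collicular samples was sequenced. Per the submitters' processing notes, the authors checked reads with FastQC 0.11.7, aligned them to mm10 with HISAT2, handled alignments with SAMtools 1.5, discarded reads with several alignments and counted reads per gene with HTSeq. The deposited values are raw counts per Ensembl gene. The annotation release and strand setting are not given in the sources used here. Groups came from the sample titles. Of 43629 gene identifiers, 42462 had a symbol in GENCODE M21.

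CPM used TMM factors over the 41 libraries of a tissue. Comparisons of 2 groups were fitted alone in edgeR 4.0.16 (R 4.3.3), over genes having over 5 reads in 2 or more of its samples, with TMM, estimateDisp and the quasi-likelihood test, and p-values were adjusted over all genes after Benjamini and Hochberg at 0.1. The log2 fold change had to reach 1.3 in the retina or 0.5 in the colliculus, but for the interaction only the adjusted p was used. The effects of OHT and stimulation were fitted additively over 4 groups, with 1 interaction fit. SEs are the log2 fold change divided by the square root of F. Correlations used log2 CPM with a prior count of 2.

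All 34 members could be named. In each comparison those of lowest p, at most 6, were described, with up to 6 of the 40 further astroglial genes. The members and lists were chosen with earlier results of these data known, and promoters are from RefSeq. Replicates were separate retinas or colliculi. Alternatives were RLE factors, other filters, DESeq2 1.42.0, 1 fit of 4 groups, a block of replicate numbers, a term for sex and leaving out libraries. The test was tried on simulated data. Python 3.11.15, pandas 2.3.3 and matplotlib 3.10.9 were used for tables and figures.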

Additional observations from a re-analysis of the deposited data

Results flagged for a closer look

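In 42 groups of 10 libraries, those of 12 members and of the summed members, 8 held a library whose distance to its nearest neighbour was large against the range of the group. For normally distributed values chance alone gives this in about 1 in 20 groups. The CPM used here need not be so distributed, which can raise that rate, and the groups share libraries. In the sorted retina, SHAM + DREADD replicate 8 was the highest for *Apoe* (2796 CPM, next 1253), *Sox9* (16.7 CPM, next 7.84), *Car14* (346 CPM, next 110) and *Rlbp1* (336 CPM, next 76.7), and OHT + DREADD replicate 8 was the highest for *Apoe* (3122 CPM, next 1619). SHAM + DREADD replicate 3 was the lowest for *Atp1b2*, at 699 CPM with the next at 2071. In the colliculus, SHAM replicate 1, the library with conflicting labels, was the highest for *Bbox1* (9.11 CPM, next 5.51), and SHAM replicate 7 for the summed members (12254 CPM, next 11232).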

How the results depend on the processing

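No member was called in any of the 14 comparisons as reported. Without the filter on low counts, the number of members called in the sorted retina was 1 for OHT against SHAM, 2 for OHT + DREADD against OHT, 2 for SHAM + DREADD against SHAM, 3 for OHT + DREADD against SHAM + DREADD, 1 for the effect of OHT and 1 for that of stimulation. In the 4 comparisons of 2 groups, 2293 to 3089 of all retinal genes were then called, against 2 to 15 with the filter. For the effects of OHT and of stimulation, 2966 and 2871 were then called, against 531 and 446. In the colliculus the number of members called without the filter was 1 for SHAM + DREADD against SHAM, *Bbox1* with an adjusted p of 0.099. In it, 20 of all genes were then called, against 13 with the filter. Leaving out 1 library at a time gave 0 to 1 members for that comparison, with *Bbox1* called without SHAM replicate 1 (adjusted p = 0.014), SHAM + DREADD replicate 7 (0.077) or replicate 8 (0.077), and 0 for the other 7 comparisons of 2 groups. Sex as a covariate gave 1 member, *Dio2*, in OHT + DREADD against OHT and 2, *Dio2* and *Bbox1*, for stimulation in the colliculus. Without the 2 retinal libraries rich in members, chosen after seeing the data, 1 member was called for the interaction, *Rlbp1*. For the settings with sex or without libraries, the number of all genes called is not given here. Those calls therefore cannot be set against a background.

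Of 1524 values of named members under alternatives, 1508 kept their direction and side of the threshold, 10 then passed and 6 changed direction. These 6 were, in SHAM + DREADD against SHAM, *Rgr* in the retina at -1.16 in DESeq2 and from -0.92, without SHAM + DREADD replicate 8, to 2.71, without SHAM replicate 3, *Ppp1r3c* in the retina at -0.26 and *S100b* in the colliculus at -0.055 with sex as a covariate, further *Acsbg1* at -0.16 in DESeq2 for the effect of OHT in the retina and *Dio2* at -0.24 with sex as a covariate in OHT + DREADD against SHAM + DREADD in the colliculus. The cause was not tested. The replicate block gave 0 members called in every comparison it was run for and changed no call. The numbers pair no samples by design, and same-numbered samples correlated above 0.1 in 0 to 6 of 10 pairs.

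Retinal members with few reads, 17 of which lacked reads in some libraries, could not be compared at this depth. All p-values of the members are exploratory, since the list was chosen with results of these data known. Sex cannot be told apart from stimulation without OHT.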
